A study of Mus musculus with 34 samples.

Results

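A set of 10 mouse keratin genes, selected by name, was followed through 34 RNA-seq libraries of colon tumour organoids. They were Krt7, Krt8, Krt18, Krt19 and Krt23, keratins of simple epithelia, Krt5, Krt14, Krt15 and Krt17, keratins of basal cells in stratified epithelia, and Krt80, a keratin of differentiating squamous cells. These are 10 of the 54354 genes in the deposited table. The genes were picked with their levels and changes over all groups already known, so their values, fold changes and calls are a description, and none of them is offered as a test.

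Polyadenylated RNA was sequenced from organoids, 3-dimensional epithelial cultures, of mouse colon tumour origin, all with the genotype given as AKP, which the labels do not spell out. In a CRISPR experiment, 9 libraries came from clone2 and 9 from clone1, both knocked out for Degs1, the desaturase that turns dihydroceramide into ceramide, and 3 came from a Scrambled control. In a hairpin experiment, 3 libraries were labelled shYAP, for a hairpin against Yap1, a transcriptional coactivator of the Hippo pathway, and 10 were labelled shControl, for a control hairpin. Each clone is 1 line and the labels name a single Scrambled control. They do not say whether replicates were separate cultures, so n counts libraries and the spread may be technical.

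Keratins are the intermediate filament proteins of epithelial cells, and each filament is built from pairs of 1 type I and 1 type II chain. In simple epithelia such as the intestine, the type II chain Krt8 pairs chiefly with the type I chains Krt18 and Krt19, while Krt7, another type II chain, is typical of ducts and glands. Basal cells of skin and other stratified epithelia use Krt5 with Krt14 instead, with Krt15 in quiescent basal and hair follicle stem cells and Krt17 in hair follicles and wounded skin. The type II genes stand in a cluster on mouse chromosome 15, which also holds the type I gene Krt18, and the other type I genes stand in a cluster on chromosome 11.

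Library totals ran from 883253 to 6597099 counts, with clone1 replicate 2 the shallowest. Degs1 mRNA averaged 1.71 ± 0.893 CPM in clone2 and 2.41 ± 1.32 in clone1, against 7.74 ± 2.62 in Scrambled (SD, n = 9, 9 and 3), where CPM is the count of a gene relative to the TMM-scaled library total. Its fitted log2 change was -2.15 ± 0.43 in clone2 and -1.57 ± 0.43 in clone1 (SE). Degs1 averaged 14.7 ± 4.21 CPM in the libraries labelled shYAP, against 5.235 ± 1.67 in shControl (SD, n = 3 and 10). That was a log2 rise of 1.47 ± 0.29 (edgeR adjusted p = 0.00205). Yap1 mRNA was not detectably lower in the libraries labelled shYAP, at 20.1, 19.2 and 17.9 CPM, against 9.51 to 22.1 in shControl (median 16.3, n = 10). The log2 change was 0.20 ± 0.23 (edgeR adjusted p = 0.619), so these libraries are called by their label throughout. Summed markers of fibroblasts reached at most 1.18 CPM, with Col1a2, Col3a1 and Pdgfrb at 0 in all groups. The 4 endothelial markers summed to at most 3.12 CPM. Of these, Cdh5 and Kdr were at 0 in all groups, while group means of Pecam1 ran from 0.735 CPM in clone2 to 1.89 in the libraries labelled shYAP. Cd3e of T cells was at 0 in all groups. The 6 immune markers summed to 17.5 to 31.5 CPM in clone2, 22.8 to 28.7 in clone1, 31.5 to 38.6 in Scrambled, 12.6 to 15.7 in the libraries labelled shYAP and 15.3 to 40.9 in shControl. In bulk RNA, fewer cells of a type and less RNA per cell cannot be told apart.

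Krt7 (chr15:101411043-101430313, plus strand), Krt8 (chr15:101996698-102004482, minus strand) and Krt18 (chr15:102028180-102032027, plus strand), on build mm10, are compared below as chains of simple epithelia. Krt8 and Krt18 are partners and lie close together in opposite orientation, and Krt7 is the other type II chain. The 250 bases before the RefSeq start of each are shown for that reason, on GRCm38.p6. Each RefSeq start lies inside the GENCODE span given above, so the windows of Krt8 and Krt18 overlap those spans in part and that of Krt7 lies wholly within its span. The windows are chr15:101412153-101412402 on the plus strand for Krt7, chr15:102004343-102004592 on the minus strand for Krt8 and chr15:102027966-102028215 on the plus strand for Krt18, and capitals mark GC boxes.
Krt7 upstream: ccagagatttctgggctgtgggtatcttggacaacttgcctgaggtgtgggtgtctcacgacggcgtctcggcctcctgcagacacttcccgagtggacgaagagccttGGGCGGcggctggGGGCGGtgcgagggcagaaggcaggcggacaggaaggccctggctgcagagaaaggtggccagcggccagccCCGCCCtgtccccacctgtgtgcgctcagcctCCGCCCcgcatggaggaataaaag
Krt8 upstream: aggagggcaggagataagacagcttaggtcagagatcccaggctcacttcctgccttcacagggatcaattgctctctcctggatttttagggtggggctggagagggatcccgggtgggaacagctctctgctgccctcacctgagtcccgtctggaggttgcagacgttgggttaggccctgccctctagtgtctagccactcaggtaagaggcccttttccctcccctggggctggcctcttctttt
Krt18 upstream: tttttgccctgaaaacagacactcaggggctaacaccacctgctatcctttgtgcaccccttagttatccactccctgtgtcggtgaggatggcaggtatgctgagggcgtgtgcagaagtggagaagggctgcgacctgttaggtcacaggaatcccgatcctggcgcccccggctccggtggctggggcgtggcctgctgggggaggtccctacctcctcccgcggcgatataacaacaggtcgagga
The Krt7 window held 4 GC boxes (GGGCGG on either strand), with first bases 141, 128, 56 and 24 bases before the start, and had a GC content of 66%. The Krt8 and Krt18 windows held none and had 58% and 60.4% GC. A GC box occurred in 32.7% of the 32851 windows of the same length in the RefSeq table. Of the 10 keratins, 6 had a window there (Krt7, Krt8, Krt18, Krt23, Krt5 and Krt14). None of the 6 held the TATA motif TATAAA, found in 12.4% of all windows, or the AP-1 motif TGANTCA, found in 6.75%. The TEAD motif GGAATG, found in 12.6% of all windows, occurred once, in Krt14, 66 bases before the start. Motifs were searched on both strands, and none of these 4 motifs overlaps another in these windows.

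Krt8, the main type II chain of simple epithelia, moved in opposite directions in the knockout clones. It had a lowest, median and highest level of 169, 240 and 268 CPM in clone2 and of 551, 598 and 827 CPM in clone1, against 456, 474 and 406 CPM in the Scrambled libraries. All 9 clone2 libraries lay below all 3 Scrambled libraries, and all 9 clone1 libraries lay above them. The fitted log2 change against Scrambled was -1.0 ± 0.12 in clone2 and 0.51 ± 0.13 in clone1, and that of clone2 against clone1 was -1.51 ± 0.09, each past the threshold, an edgeR adjusted p below 0.05 over all genes tested. In the hairpin experiment Krt8 had 328, 324 and 296 CPM in the libraries labelled shYAP, inside the range of 210 to 356 in shControl (median 282), with a log2 difference of 0.16 ± 0.13 (95% interval -0.12 to 0.44). The 2 controls stood apart for this gene, as every Scrambled library lay above every shControl library. With shControl in place of Scrambled, the log2 value of clone2 was -0.32 and that of clone1 was 1.16. The call in clone1 was lost in 2 of 16 alternative fits, with values from 0.40 to 1.16. That in clone2 passed in all 15, with values from -1.29 to -0.32. The 6 intestinal epithelial markers Epcam, Cdh1, Vil1, Lgals4, Cdx1 and Cdx2 summed to 1100 to 1760 CPM in clone2 and 3410 to 3840 in clone1, against 3130 to 3300 in Scrambled. Most of the sum is Lgals4, which averaged 961 CPM in clone2 and 2935 in clone1, against 2738 in Scrambled. All 6 had a lower mean in clone2 than in Scrambled, while in clone1 Epcam, Cdh1 and Lgals4 had a higher mean and Vil1, Cdx1 and Cdx2 a lower one. Their part in the Krt8 levels was not tested. Of the 31-base windows of Krt8 transcripts, 32.2% also occur in the pseudogene Krt8-ps, which had 0 counts in all libraries.

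Krt7, the type II keratin of ducts and glands, did not follow Krt8. Its lowest, median and highest levels were 441, 520 and 833 CPM in clone2 and 390, 469 and 520 CPM in clone1, against 475, 519 and 403 CPM in Scrambled. Clone2 overlapped Scrambled, although 5 of its 9 libraries lay above all Scrambled libraries, and the log2 change was 0.35 ± 0.17 in clone2 and -0.02 ± 0.17 in clone1, neither past the threshold. Clone2 was higher than clone1 by a log2 value of 0.37 ± 0.12, past the threshold. Krt7 had 421, 477 and 399 CPM in the libraries labelled shYAP, against 283, 323 and 473 CPM (lowest, median, highest) in shControl, and the difference of 0.29 ± 0.16 did not pass. With shControl in place of Scrambled, the value in clone1 was 0.38 and passed. The call of clone2 against clone1 was lost in 3 of 12 alternative fits, with values from 0.32 to 0.39.

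**Figure D1:**
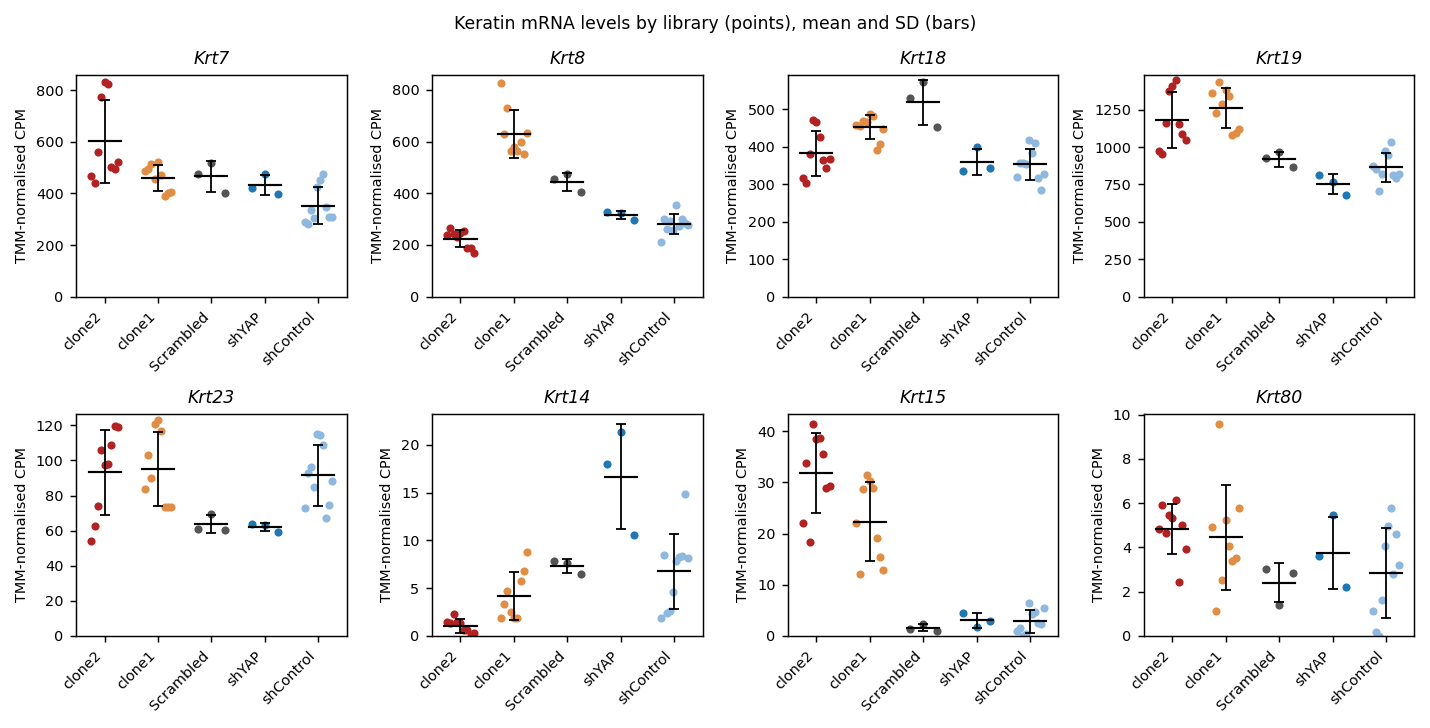
TMM-normalised CPM of the 8 keratins that passed the filter on low counts, 1 panel per gene with axes from 0, for clone2, clone1, Scrambled, the libraries labelled shYAP and shControl. Points are libraries, and bars give the mean and SD (n = 9, 9, 3, 3 and 10). Krt8 is below Scrambled in all clone2 libraries and above it in all clone1 libraries, and Krt15 is above Scrambled in all libraries of both clones.

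Among the type I simple keratins, Krt18, the usual partner of Krt8, was lower in clone2. Its lowest, median and highest levels were 304, 366 and 470 CPM in clone2 and 392, 456 and 487 CPM in clone1, against 529, 571 and 454 CPM in Scrambled. In clone2, 7 of 9 libraries lay below all Scrambled libraries, and the log2 change was -0.46 ± 0.11, past the threshold. Clone1 stood at -0.19 ± 0.11, not past it, and clone2 against clone1 at -0.27 ± 0.08, past it. Krt18 was thus lower in clone2, as Krt8 was, and did not pass the threshold in clone1, where Krt8 was higher. In the libraries labelled shYAP it had 336, 399 and 343 CPM, against 286, 355 and 418 CPM (lowest, median, highest) in shControl, a log2 difference of 0.02 ± 0.13 (95% interval -0.25 to 0.30). The direction in clone2 rests on the Scrambled control: against shControl, whose libraries all lay below Scrambled, the value was 0.12. Of the Krt18 windows, 9.31% also occur in the pseudogene Gm5200, which had 0 counts in all libraries.

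Krt19, the smallest keratin and one of the chains of intestinal epithelium, was higher in both clones. Its lowest, median and highest levels were 954, 1154 and 1447 CPM in clone2 and 1079, 1287 and 1435 CPM in clone1, against 926, 966 and 866 CPM in Scrambled. All 9 clone1 libraries and 8 of 9 clone2 libraries lay above all Scrambled libraries. The log2 change was 0.34 ± 0.12 in clone2 and 0.46 ± 0.12 in clone1, both past the threshold, and the clones differed by -0.12 ± 0.08 (95% interval -0.28 to 0.05), not past it. The call in clone2 was lost in 5 of 15 alternative fits and that in clone1 in 2 of 16, with values from 0.26 to 0.45 in clone2 and 0.25 to 0.56 in clone1. Krt19 had 816, 764 and 682 CPM in the libraries labelled shYAP, against 705, 837 and 1037 CPM (lowest, median, highest) in shControl, and the difference of -0.20 ± 0.13 did not pass.

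Krt23, a type I keratin expressed in some gastrointestinal tumours in human, was the keratin that passed the threshold in the hairpin experiment. It had 63.5, 63.0 and 59.4 CPM in the libraries labelled shYAP, against 67.2, 90.7 and 115 CPM (lowest, median, highest) in shControl. The 3 libraries labelled shYAP lay below all 10 shControl libraries, with a log2 change of -0.56 ± 0.17, and the call was lost in 7 of 14 alternative fits, with values from -0.62 to -0.48. In the CRISPR experiment its lowest, median and highest levels were 54.3, 97.8 and 120 CPM in clone2 and 73.2, 90.1 and 123 CPM in clone1, against 61.1, 69.8 and 60.3 CPM in Scrambled. Every clone1 library lay above Scrambled, but the log2 changes of 0.53 ± 0.21 in clone2 and 0.57 ± 0.22 in clone1 did not pass the threshold. Clone1 held 2 levels, at 83.7 to 123 CPM in replicates 1 to 6 and at 73.2 to 73.4 CPM in replicates 7 to 9.

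Krt15, the basal keratin of resting stem cells, had the largest fold of the 10 genes. Its lowest, median and highest levels were 18.3, 33.7 and 41.3 CPM in clone2 and 12.2, 22.0 and 31.5 CPM in clone1, against 1.39, 2.32 and 1.02 CPM in Scrambled. All 18 clone libraries lay above all Scrambled libraries, and both changes passed the threshold. The fitted change was 18.9-fold in clone2 and 13.7-fold in clone1, and it passed in all 15 and all 16 alternative fits, with log2 values from 3.43 to 4.70 in clone2 and from 2.94 to 4.23 in clone1. Clone2 exceeded clone1 by a log2 value of 0.47 ± 0.18, past the threshold but lost in 4 of 12 alternative fits. Krt15 had 4.55, 1.66 and 2.87 CPM in the libraries labelled shYAP, against 0, 2.43 and 6.39 CPM (lowest, median, highest) in shControl, and the difference of 0.05 ± 0.67 had a 95% interval from -1.34 to 1.43. Within shControl, Krt15 was at 0 to 1.62 CPM in replicates 1 to 4 and at 4.26 to 6.39 CPM in replicates 5 to 7.

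Krt14, the type I chain of basal cells, went the other way from Krt15 in clone2. Its lowest, median and highest levels were 0, 1.31 and 2.32 CPM in clone2 and 1.83, 3.32 and 8.83 CPM in clone1, against 7.87, 7.58 and 6.50 CPM in Scrambled. All 9 clone2 libraries lay below Scrambled, with a log2 change of -2.81 ± 0.47, past the threshold, while clone1 overlapped Scrambled at -0.75 ± 0.45, not past it. Clone2 against clone1 stood at -2.06 ± 0.40, past the threshold. Clone1 replicates 7 to 9 had 5.77 to 8.83 CPM and replicates 1 to 6 had 1.83 to 4.68 CPM. These runs of library numbers were chosen after values were seen, so the split is a description. Krt14 had 18.0, 21.3 and 10.6 CPM in the libraries labelled shYAP, against 1.86, 7.96 and 14.8 CPM (lowest, median, highest) in shControl. Of these 3 libraries 2 lay above all of shControl, and the log2 difference of 1.27 ± 0.41 did not pass, although it passed in 5 of 14 alternative fits. These are low counts, and Krt14 shares coding sequence with other type I keratins, so its reads may be split among them. The longest run of identical bases in the coding sequences of Krt14 (bases 306 to 439) and Krt16 (bases 282 to 415), both on chromosome 11 in mm10, is shown because a read inside it cannot be assigned to either, and it has 134 bases.
Krt14 and Krt16: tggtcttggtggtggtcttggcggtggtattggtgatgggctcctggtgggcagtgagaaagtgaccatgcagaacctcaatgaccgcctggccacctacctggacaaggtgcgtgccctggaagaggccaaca
The longest run shared by Krt14 and Krt17 has 71 bases.
Krt14 and Krt17: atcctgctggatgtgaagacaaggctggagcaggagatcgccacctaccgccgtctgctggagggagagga
Of all 31-base windows of Krt14 transcripts, 28.2% occur in another gene, 17.6% in Krt16 and 10.5% in Krt17. Krt16 itself averaged 0.119 CPM in clone2, 0.959 in clone1, 0.580 in Scrambled, 0.627 in the libraries labelled shYAP and 0.462 in shControl. Krt15 shared 3.74% of its windows with other genes.

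Krt5, the type II partner of Krt14 in basal cells, was at or near 0 counts. It had 0 counts in all libraries of clone2, clone1, Scrambled and shControl, which allows a level of up to 0.0689 CPM in clone2, 0.0808 in clone1, 0.191 in Scrambled and 0.0663 in shControl (3 counts over each group, counting error only), and 2 counts in 1 library labelled shYAP. Krt17, the hair follicle and wound keratin, had 5 counts in clone2 replicate 5, 1 count in a library labelled shYAP, 3 counts over 2 shControl libraries, and 0 in clone1 and Scrambled. Both fell below the filter on low counts and entered no fit, so 8 of the 10 keratins were tested. The basal type I chains Krt14 and Krt15 had counts in clone2, clone1, Scrambled and shControl, where Krt5 had 0. Trp63, the transcription factor of basal cells, had 0 counts in clone2, Scrambled and the libraries labelled shYAP. The 8 squamous or basal markers (Trp63, Krt5, Krt14, Krt15, Ivl, Lor, Tgm1 and Dsg3, of which 3 are among the 10 keratins) summed to 64.4 to 107 CPM in clone2 and 51.0 to 63.6 in clone1, against 24.8 to 27.5 in Scrambled, and to 49.9 to 58.3 in the libraries labelled shYAP, against 6.08 to 42.2 in shControl. In the clones the largest parts were Tgm1 and Krt15. Tgm1 averaged 43.5 CPM in clone2 and 21.8 in clone1, against 11.7 in Scrambled. Krt14 and Dsg3 had lower means in clone2 than in Scrambled, Dsg3 at 1.23 CPM against 2.82. In the libraries labelled shYAP the largest parts were Krt14, Ivl and Tgm1, at 16.6, 14.0 and 13.4 CPM. These genes averaged 6.75, 1.54 and 11.6 CPM in shControl. The name basal keratins is used here for the genes alone.

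Krt80, a type II keratin of squamous differentiation, stayed at a low level in all groups. It had 2.43 to 6.14 CPM in clone2 and 1.11 to 9.56 CPM in clone1, against 3.01, 1.39 and 2.84 CPM in Scrambled. The log2 change of 1.01 ± 0.40 in clone2 passed the threshold and was lost in 10 of 15 alternative fits, and that of 0.99 ± 0.40 in clone1 did not pass. It had 3.6, 5.45 and 2.21 CPM in the libraries labelled shYAP, against 0 to 5.77 CPM in shControl, a log2 difference of 0.37 ± 0.62.

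Counted together, 3 of the 8 tested keratins were higher (Krt19, Krt15, Krt80) and 3 lower (Krt8, Krt18, Krt14) in clone2 than in Scrambled, where 16.5% of 11514 genes were higher and 16.6% lower. Their median log2 change was 0.34, beside -0.03 over all genes. In clone1 3 were higher (Krt8, Krt19, Krt15) and 0 lower, where 5.96% of genes were higher and 6.71% lower, and the medians were 0.48 and 0.03. Without Scrambled replicate 3, 1 of the 3 passed in clone1, namely Krt15, while Krt8 and Krt19 did not. In clone2 against clone1, 2 were higher (Krt7, Krt15) and 3 lower (Krt8, Krt18, Krt14), where 23.6% of genes were higher and 25.5% lower, with medians of -0.08 and -0.05. In the libraries labelled shYAP 1 was lower (Krt23) and 0 higher, where 5.9% of 11094 genes were lower and 5.47% higher, and the medians were 0.10 and -0.05. By ranges that do not overlap, 1 of the 10 was above and 2 below Scrambled in clone2, beside 24.7% of tested genes in either direction, and 4 were above and 0 below in clone1, beside 10.8%. Clone2 lay below clone1 for 1 keratin, beside 11.7%, and the libraries labelled shYAP lay below shControl for 1, beside 11.3%. As the genes were picked with these contrasts known, nothing is read from these shares. Clone2 and clone1 were both set against the same 3 Scrambled libraries.

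**Figure D2:**
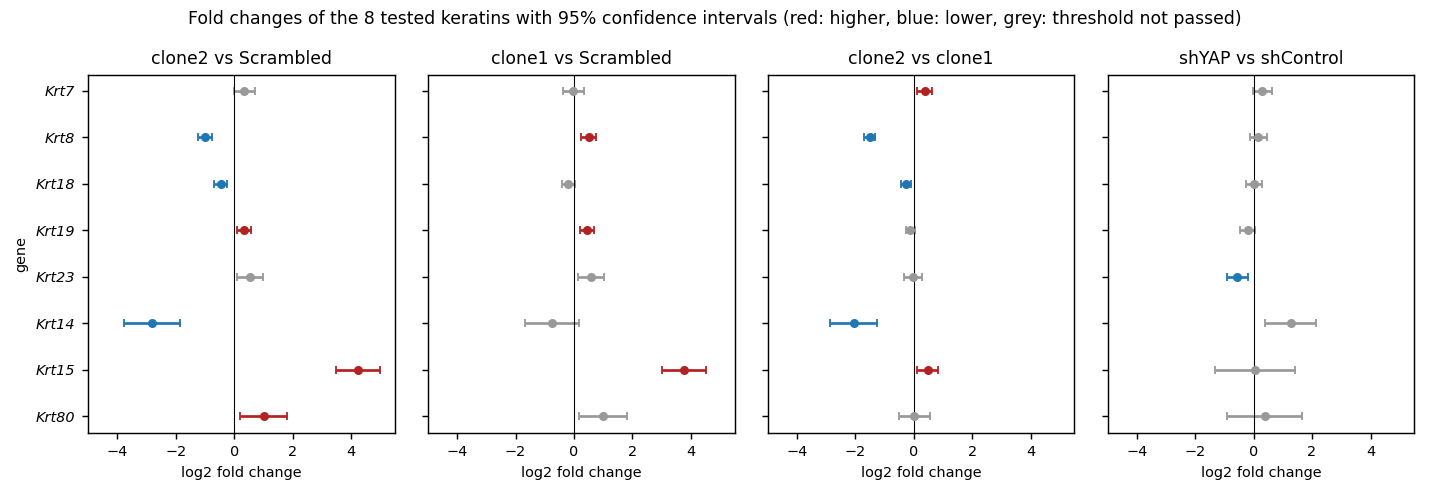
Log2 fold change (x axis) of each of the 8 tested keratins (rows) in clone2 against Scrambled, clone1 against Scrambled, clone2 against clone1 and the libraries labelled shYAP against shControl. Points are edgeR estimates with 95% confidence intervals, red where higher and blue where lower past the threshold, grey otherwise. Krt8 is at -1.0 in clone2 and 0.51 in clone1, and Krt15 at 4.24 and 3.77.

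Set against each other per kilobase of exon sequence, Krt19 stood first in all 5 groups, at 636 ± 101 CPM per kilobase in clone2, 678 ± 72.0 in clone1, 496 ± 27.1 in Scrambled, 406 ± 36.4 in the libraries labelled shYAP and 466 ± 52.5 in shControl. By this length Krt18 and Krt8 held the next 2 places in every group. In clone1 they did not differ beyond their spread, at 314 ± 22.2 CPM per kilobase for Krt18 and 322 ± 47.1 for Krt8, whereas in clone2 Krt18 stood at 266 ± 42.0 and Krt8 at 115 ± 17.5. Krt7 and Krt23 followed, at 85.3 ± 22.9 and 59.6 ± 15.4 in clone2, and did not differ beyond their spread in clone1, at 65.2 ± 7.12 and 60.8 ± 13.4. The level of Krt7 depends on the length used: its exon union is 7049 bases and its median coding transcript 2368 bases, and with the transcript length it stood above Krt8 in 3 of the 5 groups. It then had 254 ± 68.1 CPM per kilobase in clone2, 183 ± 17.0 in the libraries labelled shYAP and 149 ± 30.0 in shControl, where Krt8 had 115 ± 17.5, 161 ± 8.79 and 144 ± 19.1 in the same groups. Krt15 reached 18.0 CPM per kilobase in clone2 and 12.6 in clone1, against 0.891 in Scrambled, and so remained far below the simple keratins.

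The balance of the type II chains shifted with the group. Krt8 made up 57.7 ± 6.06% of Krt7 plus Krt8 per kilobase in clone2 and 83.0 ± 1.95% in clone1, against 77.5 ± 0.882% in Scrambled, and 72.5 ± 1.39% in the libraries labelled shYAP, against 74.2 ± 3.83% in shControl. The 9 clone2 libraries ranged from 51.7 to 68.6% and the 9 clone1 libraries from 80.0 to 86.0%, so clone2 lay below and clone1 above the Scrambled range of 76.7 to 78.4%. With the median coding transcript as length the shares were 31.8 ± 5.62% in clone2 and 62.3 ± 3.27% in clone1, against 53.7 ± 1.26% in Scrambled, with the same order and no overlap. Together the type II chains made up 17.3 ± 1.92% of the 5 simple keratins in clone2 and 26.9 ± 2.37% in clone1, against 24.7 ± 0.256% in Scrambled. This share was 24.2 ± 0.134% in the libraries labelled shYAP, against 20.2 ± 1.95% in shControl, with all 3 libraries labelled shYAP above all 10 shControl libraries. With the median coding transcript as length it was 25.5 ± 1.89% in clone2 and 30.5 ± 1.98% in clone1, against 30.1 ± 0.535% in Scrambled, so that clone1 overlapped Scrambled, and 30.9 ± 0.508% in the libraries labelled shYAP, against 25.6 ± 1.94% in shControl, again without overlap. The 5 simple keratins summed to 2481 ± 422 CPM in clone2 and 2895 ± 268 in clone1, against 2412 ± 208 in Scrambled, and to 1924 ± 129 in the libraries labelled shYAP, against 1943 ± 218 in shControl. The 5 basal and squamous keratins summed to 37.8 ± 8.14 CPM in clone2 and 30.9 ± 7.80 in clone1, against 11.3 ± 0.950 in Scrambled, and to 23.6 ± 6.42 in the libraries labelled shYAP, against 12.5 ± 6.81 in shControl. Per kilobase they were 1.65 ± 0.286% of the 10 keratins in clone2 and 1.08 ± 0.223% in clone1, against 0.454 ± 0.0200% in Scrambled.

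**Figure D3:**
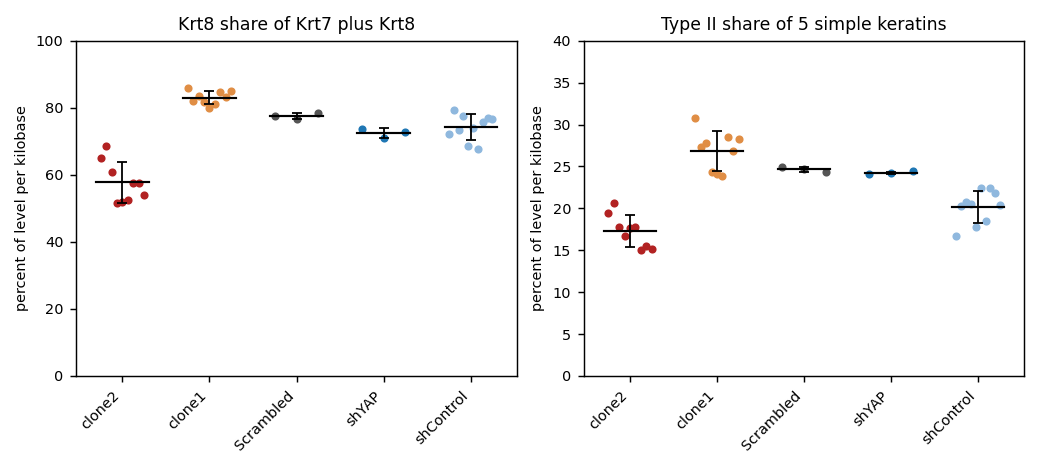
Left, Krt8 as a percent of Krt7 plus Krt8, with an axis from 0 to 100. Right, the type II keratins Krt7 and Krt8 as a percent of the 5 simple keratins, with an axis from 0 to 40. Both use TMM-normalised CPM per kilobase of exon union, points are libraries of clone2, clone1, Scrambled, the libraries labelled shYAP and shControl, and bars give the mean and SD. The Krt8 share is 57.7% in clone2, 83.0% in clone1 and 77.5% in Scrambled.

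How the simple keratins vary between libraries of 1 group was not part of their choice, and was tested for the 4 pairs of a type II chain with Krt18 or Krt19 in the 3 groups with 9 or 10 libraries, 12 relations in all. Krt7 varied with both type I chains. In clone2 the log2 CPM of Krt7 and Krt19 had Pearson r = 0.967 and Spearman rho = 0.933 (exact permutation p = 0.000309 and 0.00075, adjusted over the 12 relations 0.00192 and 0.0045, n = 9). Krt7 and Krt18 had r = 0.948 and rho = 0.95 in clone2 (exact permutation p = 0.00032 and 0.000353, adjusted 0.00192 and 0.00424). In clone1 Krt7 had r = 0.923 and rho = 0.883 with Krt19 (exact permutation p = 0.00323 and 0.00308, adjusted 0.0129 and 0.0123) and r = 0.826 and rho = 0.8 with Krt18 (exact permutation p = 0.00628 and 0.0138, adjusted 0.0188 and 0.0414). In shControl Krt7 had r = 0.739 and rho = 0.467 with Krt18 (permutation p = 0.0175 and 0.182, adjusted 0.042 and 0.437, n = 10) and r = 0.696 and rho = 0.37 with Krt19 (permutation p = 0.0271 and 0.297, adjusted 0.0542 and 0.594). Krt8 passed with neither chain in any of the 3 groups: r with Krt18 was 0.121 in clone2, 0.143 in clone1 and 0.151 in shControl, and with Krt19 0.227, 0.413 and 0.0798 in the same groups (permutation, adjusted p from 0.48 to 0.837). The difference between the Krt7 and Krt8 relations was not tested. The permutation p-values treat the libraries of a group as exchangeable. Runs of neighbouring libraries may break this, so the p-values may be too small. Both levels of a pair are also divided by the same TMM-scaled library total, which can by itself raise r. Its part in these relations was not tested.

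Krt7 levels also fell into runs of libraries with neighbouring numbers. In clone2, replicates 4 to 6 had 775 to 833 CPM of Krt7 and the other 6 libraries 441 to 560 CPM. The same replicates had 1377 to 1447 CPM of Krt19, against 954 to 1159 in the other 6 libraries. For Krt18 they had 425 to 470 CPM, against 304 to 379. In shControl, replicates 5 to 7 had 425 to 473 CPM of Krt7 and the other 7 libraries 283 to 346 CPM. In clone1, replicates 7 to 9 had 390 to 404 CPM of Krt7 and the other 6 libraries 455 to 520 CPM. Among clone2 libraries, the TMM-scaled total lay furthest below the raw total in replicates 4 to 6, at 5301196 beside 6528997 counts in replicate 4. It lay above the raw total in clone1 replicates 7 to 9 and in shControl replicates 5 to 7. Within replicates 1 to 6 of clone2, r was 0.993 with Krt19 and 0.962 with Krt18 (exact permutation p adjusted 0.0667 and 0.1, n = 6), so that with 6 libraries even the larger r did not pass. In clone1 the same replicates gave r = 0.49 with Krt19 and 0.17 with Krt18 (exact permutation p adjusted 0.633 and 0.87, n = 6), lower than over all 9 libraries, and the difference was not tested. In shControl replicates 5 to 10, r was 0.948 with Krt19 and 0.907 with Krt18 (exact permutation p adjusted 0.111 and 0.167, n = 6). Leaving out the 2 libraries farthest from the median of Krt7, r with Krt19 and Krt18 was 0.932 and 0.975 in clone2, 0.83 and 0.558 in clone1, and 0.352 and 0.6 in shControl. By Pearson r only the 2 relations of clone2 stayed past an adjusted p of 0.05, with 7 libraries in each clone and 8 in shControl. The relation of Krt7 with Krt18 in clone1 and with both chains in shControl had an r of 0.6 or less without these libraries.

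**Figure D4:**
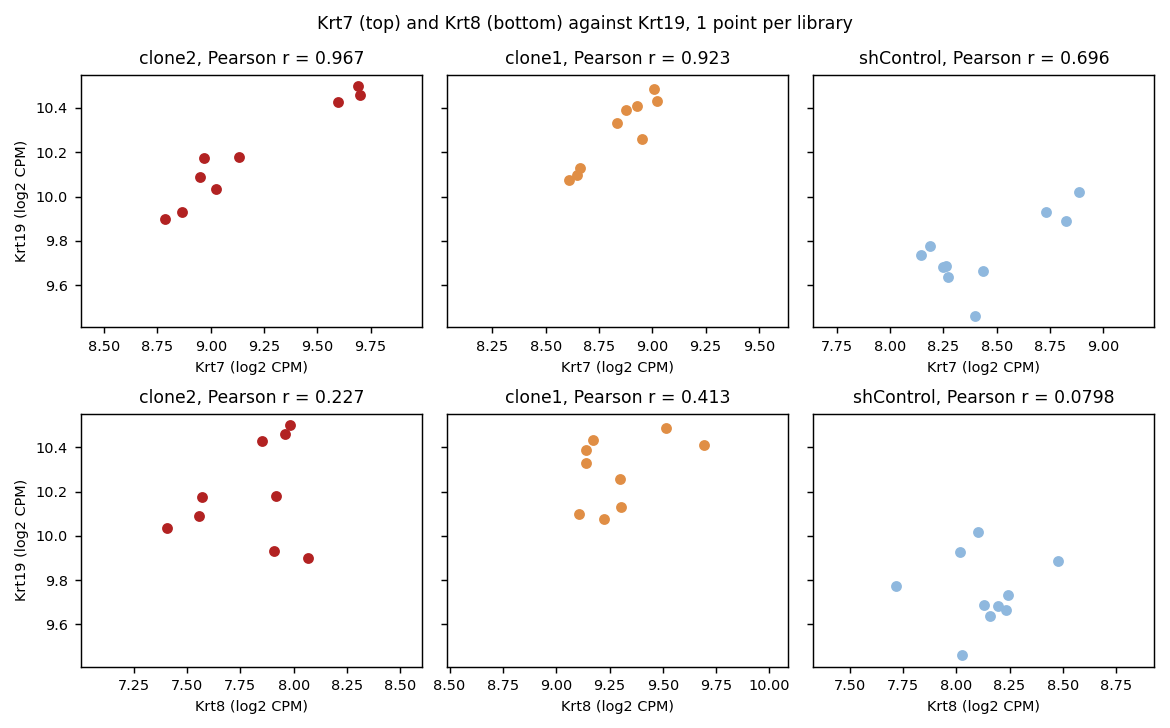
Krt19 (y axis, log2 CPM) against Krt7 (top row, x axis) and Krt8 (bottom row, x axis), 1 point per library, in clone2, clone1 and shControl. Pearson r with Krt7 is 0.967, 0.923 and 0.696 in that order, and with Krt8 0.227, 0.413 and 0.0798. In clone2 and shControl 3 libraries with high Krt7 stand apart from the rest.

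This list of keratins and the gene lists below were also chosen with earlier results of these data known. Their counts are therefore a description, and nothing is read from the shares of all genes set beside them. Of 28 other epithelial keratins, 6 passed the filter on low counts. Krt20, a type I keratin of differentiated colonocytes, had 0.189, 1.31 and 2.65 CPM (lowest, median, highest) in clone2 and 7.21, 16.6 and 33.0 CPM in clone1, against 5.32, 3.87 and 5.08 CPM in Scrambled. All clone2 libraries lay below and all clone1 libraries above Scrambled, and the log2 change was -1.78 ± 0.43 in clone2 (edgeR adjusted p = 0.00183) and 1.95 ± 0.41 in clone1 (edgeR adjusted p = 0.00121). Krt4, a type II keratin of stratified mucosa, averaged 60.8 ± 12.1 CPM in clone2 and 154 ± 21.8 in clone1, against 93.5 ± 7.26 in Scrambled (SD, n = 9, 9 and 3). It fell by 0.64 ± 0.14 on the log2 scale in clone2 (edgeR adjusted p = 0.000405) and rose by 0.73 ± 0.15 in clone1 (edgeR adjusted p = 0.000725). Krt20 and Krt4 thus had the same signs as Krt8 in the clones. The fall of Krt4 in clone2 rests on the Scrambled control, as its log2 value against shControl was 0.23. Krt4 averaged 144 ± 10.8 CPM in the libraries labelled shYAP, against 51.3 ± 19.2 in shControl (SD, n = 3 and 10), a log2 rise of 1.47 ± 0.27 (edgeR adjusted p = 0.002). Krt13, the usual partner of Krt4, rose by 1.41 ± 0.47 in clone2 (edgeR adjusted p = 0.0204), a call lost in 6 of 15 alternative fits. In clone2 1 of these 6 keratins was higher and 2 lower than in Scrambled, in clone1 2 were higher and 0 lower, clone2 against clone1 had 1 higher and 3 lower, and in the libraries labelled shYAP 1 was higher and 0 lower. Over all genes tested, 33.1%, 12.7%, 49.1% and 11.4% passed in these 4 comparisons, in either direction.

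The genes that anchor keratin filaments, plakins and desmosome components, differed between the clones. In clone1 7 of 19 were higher than in Scrambled and 0 lower, beside 5.96% and 6.71% of all genes, with a list median of 0.49. They included Dsp, the plakin that ties keratin to the desmosome (0.93 ± 0.14, edgeR adjusted p = 1.42e-05), the plakin Ppl (0.94 ± 0.26, edgeR adjusted p = 0.0123) and the desmosomal cadherins Dsg2 (0.55 ± 0.13) and Dsc2 (0.57 ± 0.13). In clone2 1 of the 19 was higher and 3 were lower, beside 16.5% and 16.6% of all genes. Dst, a plakin of hemidesmosomes, fell by 1.41 ± 0.28 (edgeR adjusted p = 0.000176), Eppk1, a keratin-binding plakin, by 0.93 ± 0.29 (edgeR adjusted p = 0.0125) and Perp, a desmosome membrane protein, by 0.50 ± 0.14 (edgeR adjusted p = 0.00423), while Macf1, which links microtubules to actin, rose by 0.58 ± 0.19 (edgeR adjusted p = 0.0173). Clone2 against clone1 had 12 of 19 lower and 0 higher, with a median of -0.57, beside 25.5% of all genes lower. In the libraries labelled shYAP 1 of 18 was lower, Pkp1, a plakophilin of stratified epithelia (-0.87 ± 0.22, edgeR adjusted p = 0.0138), and 0 were higher, beside 5.9% and 5.47% of all genes. The calls of Dst in clone2 and of Dsp and Dsc2 in clone1 passed in all alternative fits, while those of Ppl in clone1 and of Pkp1 were lost in 5 of 16 and 6 of 14.

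Of 6 other intermediate filament genes, 2 lamins were lower in clone2 than in Scrambled, beside 16.6% of all genes. Lmna, the A-type lamin, fell by 0.74 ± 0.13 (edgeR adjusted p = 3.22e-05) and Lmnb1 by 1.2 ± 0.32 (edgeR adjusted p = 0.00329), and 0 of the 6 passed in clone1. Vim, the filament protein of mesenchymal cells, was higher in clone2 than in clone1 by 1.15 ± 0.30 (edgeR adjusted p = 0.00335). This call was lost with replicates 1 to 6 alone, where clone2 had 12.0 to 18.1 CPM and clone1 8.72 to 18.0. In replicates 7 to 9 clone2 had 27.5 to 37.1 CPM and clone1 2.58 to 6.80. Vim fell by 2.26 ± 0.28 in the libraries labelled shYAP (edgeR adjusted p = 2.55e-05).

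Among 12 tested epithelial and squamous transcription factors, 6 were higher and 1 lower in clone2, beside 16.5% and 16.6% of all genes, and 4 were higher and 1 lower in clone1, beside 5.96% and 6.71%. Tfap2a, a regulator of epidermal genes, rose by 2.24 ± 0.59 in clone2 (edgeR adjusted p = 0.00326) and by 3.56 ± 0.58 in clone1 (edgeR adjusted p = 3.88e-05). Sox9, a factor of intestinal crypts, rose by 1.0 ± 0.17 in clone2 (edgeR adjusted p = 1.23e-05) and by 0.66 ± 0.17 in clone1 (edgeR adjusted p = 0.00605). With shControl in place of Scrambled, both Sox9 calls were lost, and the clone1 value was -0.19. Grhl1, a grainyhead factor of epidermis, rose by 2.14 ± 0.47 in clone2 (edgeR adjusted p = 0.000427), and its relative Grhl3 rose by 1.5 ± 0.39 in the libraries labelled shYAP (edgeR adjusted p = 0.0148). In clone2 Grhl3 fell by 0.88 ± 0.28 (edgeR adjusted p = 0.0129), a call lost in 6 of 15 alternative fits, and its value against shControl was 0.45. Klf4, a Krüppel-like factor of surface epithelium, rose by 0.64 ± 0.18 in clone2 (edgeR adjusted p = 0.00581) and by 0.78 ± 0.18 in clone1 (edgeR adjusted p = 0.003). Its relative Klf5 stood at 0.29 ± 0.12 in clone2 (edgeR adjusted p = 0.0503) and rose by 0.48 ± 0.12 in clone1 (edgeR adjusted p = 0.00469), and neither factor passed in clone2 against clone1. Clone2 against clone1 had 5 of the 12 higher and 3 lower, beside 23.6% and 25.5% of all genes, and the libraries labelled shYAP had 1 of 11 higher and 1 lower, beside 5.47% and 5.9%.

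Of 11 basal cell and hemidesmosome genes, 2 were higher and 1 lower in clone2 and 1 was higher and 0 lower in clone1, beside 33.1% and 12.7% of all genes in either direction. Clone2 against clone1 had 2 higher and 6 lower, beside 23.6% and 25.5% of all genes. Itga6, an integrin chain of hemidesmosomes, fell by 1.16 ± 0.14 in clone2 (edgeR adjusted p = 2.32e-08), while Lama3, a chain of the basement membrane laminin to which it binds, rose by 1.21 ± 0.23 (edgeR adjusted p = 6.26e-05).

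Squamous differentiation genes moved in both directions in clone2, where 6 of 12 were higher and 4 lower, beside 33.1% of all genes in either direction, and in clone1 2 were higher and 0 lower, beside 12.7%. Ly6d, a surface protein of stratified epithelia, rose by 2.99 ± 0.40 in clone2 (edgeR adjusted p = 1.22e-05) and by 2.57 ± 0.39 in clone1 (edgeR adjusted p = 0.000196). Lypd3, a related surface protein, rose by 2.55 ± 0.65 in clone2 (edgeR adjusted p = 0.00212) and the protease inhibitor Serpinb2 by 2.75 ± 0.73 (edgeR adjusted p = 0.00313), whereas the gap junction gene Gjb2 fell by 4.24 ± 0.61 (edgeR adjusted p = 9.83e-07). Tgm1, the transglutaminase that cross-links the cornified envelope, rose by 1.88 ± 0.20 in clone2 (edgeR adjusted p = 1.52e-09) and by 0.92 ± 0.20 in clone1 (edgeR adjusted p = 0.00115). Serpinb5 and Gsta4 had lower means in clone2 than in Scrambled, at 46.6 and 62.5 CPM against 98.4 and 170. They averaged 86.9 and 202 CPM in clone1. In the libraries labelled shYAP 3 of 11 were higher and 0 lower: Ivl, a cornified envelope precursor, rose by 3.18 ± 0.49 (edgeR adjusted p = 0.000237), Serpinb5 by 0.80 ± 0.13 (edgeR adjusted p = 0.000481) and Gsta4 by 0.53 ± 0.15 (edgeR adjusted p = 0.0291). The median log2 change against Scrambled was 0.83 in clone2 and 0.35 in clone1 for the squamous list, -0.09 and 0.33 for the basal list, 0.50 and 0.17 for the transcription factors and -0.91 and 0.41 for the other keratins, beside -0.03 and 0.03 over all genes. Of the list genes named above, some calls were lost in alternative fits. In clone2 against Scrambled this held for Eppk1 in 4, Macf1 in 5, Perp in 1, Lmnb1 in 2, Lypd3 in 2 and Krt20 in 1 of 15 fits. In clone1 it held for Krt20 in 1, Dsg2 in 1, Klf4 in 2 and Klf5 in 2 of 16 fits, and in clone2 against clone1 for Vim in 1 of 12. In the libraries labelled shYAP it held for Grhl3 in 6 and Gsta4 in 5 of 14 fits.

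**Figure D5:**
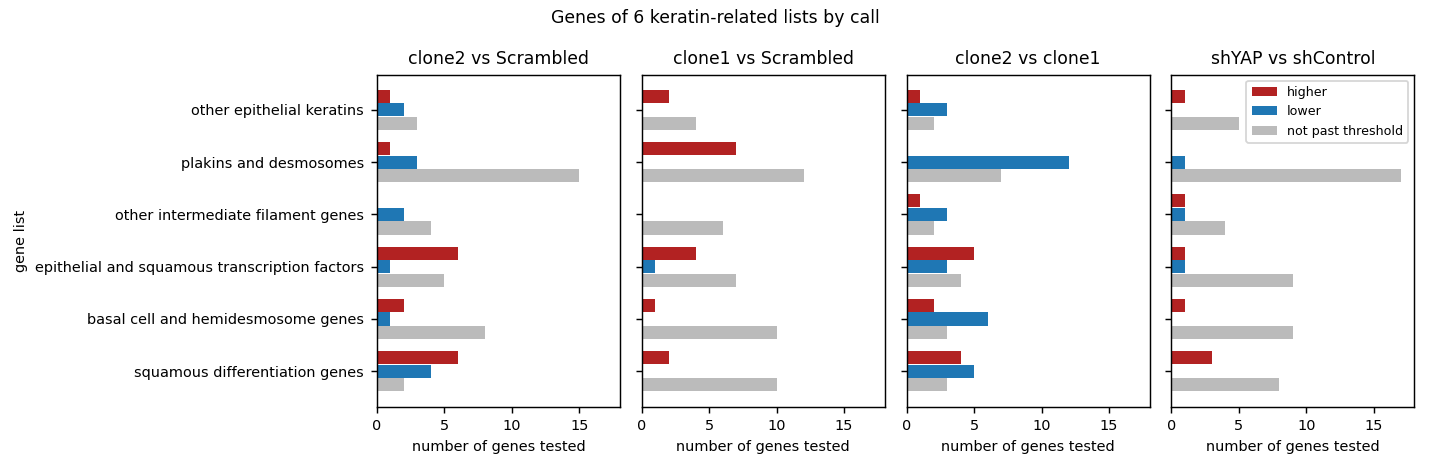
Number of genes tested (x axis) in each of 6 lists (rows) that were higher (red), lower (blue) or not past the threshold (grey), for clone2 against Scrambled, clone1 against Scrambled, clone2 against clone1 and the libraries labelled shYAP against shControl. Plakins and desmosomes have 12 of 19 genes lower in clone2 than in clone1, and 7 of 19 higher in clone1 than in Scrambled.

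By their profile over all 34 libraries, the genes most like Krt15 among the 6597 genes whose mean log2 CPM reached 3 were the hair-type keratin Krt36 (Pearson r = 0.896), the secreted ribonuclease Rnase1 (0.895), Pdlim2 (0.884), the hair-type keratin Krt34 (0.88) and Tlcd3a (0.878). Krt36 averaged 56.7 ± 15.1 CPM in clone2 and 30.3 ± 9.99 in clone1, against 4.59 ± 1.17 in Scrambled, and 20.5 ± 4.13 in the libraries labelled shYAP, against 11.6 ± 7.15 in shControl. Those most like Krt8 were the acyl-CoA synthetase Acsl5 (0.925), the membrane protein Emp1 (0.908), the interleukin 1 receptor antagonist Il1rn (0.899), Pdlim1 (0.889) and S100a8 (0.887). Acsl5 averaged 31.6 ± 3.19 CPM in clone2 and 70.2 ± 10.8 in clone1, against 50.5 ± 7.59 in Scrambled, and 36.3 ± 3.85 in the libraries labelled shYAP, against 40.04 ± 5.90 in shControl. These values describe likeness of profile over libraries that share groups and runs, and Krt17 was too low for such a comparison.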

How the data were processed

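Polyadenylated RNA was sequenced from strand-specific libraries, per the labels' protocols. The deposited table holds expected counts per gene, which the authors made with Salmon 1.3.0 (build mm10; submitters' processing notes). These are whole numbers and entered the fits unchanged. The annotation release and the strand setting are not given in the sources used here. Nameless entries made up 0.0475% of a library or less. Gene positions and transcript lengths come from GENCODE M21.

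The keratins and the gene lists were chosen with earlier results of these data known. After filterByExpr (count of 10 and total of 15 as minimum) and TMM scaling, edgeR 4.0.16 (R 4.3.3) gave two-sided robust quasi-likelihood tests, with Benjamini-Hochberg adjustment over all genes tested at a threshold of 0.05. A first fit held the 21 CRISPR libraries and another the 13 hairpin libraries, and the common biological coefficients of variation were 0.218 and 0.281. Intervals are 95% and cover the fitted spread between libraries. Co-variation used log2 CPM (prior count 2) and permutation p-values from SciPy 1.17.1, exact for 9 or fewer libraries and from 100000 resamples for 10.

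Replicate numbers did not pair libraries, with correlations from -0.0688 to 0.0764 over 18 pairs after removal of group means. Libraries with neighbouring numbers resembled one another, and the runs used (in shControl replicates 1 to 4, then 5 to 7, then 8 to 10; in clone1 1 to 6, then 7 to 9; in clone2 1 and 2, then 3 to 6, then 7 to 9) were chosen after values were seen. The labels name no batch.

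All 10 keratins, Degs1, Yap1 and Krt20 were named. Of each list and comparison, up to 4 genes were eligible, the largest changes past the threshold among genes whose mean log2 CPM reached 1. Values of some listed genes are not reported here. The likeness lists give the 5 highest r for Krt15 and Krt8. In data simulated for clone2 against Scrambled (11227 genes), 97% of genes changed by a log2 fold of 2 and 67% of those changed by 1 were recovered, and 1.8% of calls were false. For the hairpin comparison (10829 genes) these were 98%, 50% and 3.9%. The changed genes were drawn from those with a mean above 5 CPM, and the simulated libraries held no runs. These rates thus do not cover genes as low as Krt80, or Krt14 in the clones, or the effect of runs. Alternatives were other size factors, no filter, DESeq2 1.42.0, limma 3.58.1 with or without a random block for the run, a threshold of 0.01, other sets of libraries or groups in a fit, a block for the replicate number, and shControl in place of Scrambled. Leaving out clone1 replicate 2, the shallowest, was added after the data were seen.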

Additional observations from a re-analysis of the deposited data

Results flagged for a closer look

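The changes of 5 keratins against Scrambled differed between the clones, by the direct test of clone2 against clone1 within the same fit. The log2 change in clone2 minus that in clone1 was -1.51 for Krt8, -2.06 for Krt14, -0.27 for Krt18, 0.37 for Krt7 and 0.47 for Krt15. For Krt8 the changes against Scrambled had opposite signs, while for Krt15 both were rises. As these genes were picked with the group levels known, the differences are a description.

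In 3 of 26 combinations of a keratin with clone2, clone1 or shControl, 1 library stood apart from its group. Chance gives about 1 in 20, a rate that does not apply to Krt17, whose values are nearly all 0. Krt14 reached 14.8 CPM in shControl replicate 9, and the next shControl library had 8.50 CPM. Krt17 reached 0.983 CPM in clone2 replicate 5, from 5 counts, where the other 8 libraries had 0. Krt17 reached 0.467 CPM in shControl replicate 8, from 2 counts, where the next library had 0.189 CPM.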

How the results depend on the processing

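Scrambled has 3 libraries and each clone is 1 line, so the calls against Scrambled describe these lines. The libraries of a group also come in runs, and with a random block for the run in limma the calls were fewest: 18 list genes in clone2 against Scrambled, beside 29, 7 beside 17 in clone1, 4 beside 10 in the libraries labelled shYAP, and among the keratins 1 beside 3 in clone1, 3 beside 5 in clone2 against clone1 and 0 beside 1 in the libraries labelled shYAP. Over all genes it left 2304 of 3810, 467 of 1459 and 271 of 1261 calls in clone2, in clone1 and in the libraries labelled shYAP. At a threshold of 0.01, 11 list genes passed in clone1 and 5 in the libraries labelled shYAP, 3 keratins in clone2 against clone1 and 0 in the libraries labelled shYAP, with 756 and 453 genes in all for clone1 and the libraries labelled shYAP. With shControl in place of Scrambled, 5 keratins and 32 list genes passed in clone1, of 2503 genes in all. Knockout replicates 1 to 6 alone gave 5 keratins in clone1 and 3 in clone2 against clone1, and replicates 7 to 9 alone gave 5 in clone1. Without 1 Scrambled library, clone1 kept between 1 and 3 keratins, between 11 and 13 list genes and between 779 and 1025 genes in all. Without 1 library labelled shYAP, 0 keratins and 5 list genes passed, and between 412 and 515 genes in all. The hairpin comparison had 0 keratins without a filter, 2 with DESeq2, 2 keratins, 17 list genes and 2065 genes in all in 1 fit of all groups, 2 keratins against shControl replicates 5 to 10, and 4 keratins, 23 list genes and 2604 genes in all against replicates 1 to 4. The replicate numbers share no pairing, and with the replicate block 3 keratins passed in the hairpin comparison. The count of keratin pairs that co-varied was 2 in clone2 and 0 in neighbouring libraries alone, 2 in clone1 and 0 without the 2 farthest libraries or in neighbouring libraries alone, and 1 in shControl and 0 in both. With 6 neighbouring libraries an r of 0.993 did not pass, so those counts of 0 say nothing about stability: r of Krt7 with Krt19 and Krt18 was 0.993 and 0.962 there in clone2 and 0.948 and 0.907 in shControl. The cause of the other shifts was not tested.

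Log2 values that changed sign with shControl in place of Scrambled were Krt18 at 0.12, Krt4 at 0.23 and Grhl3 at 0.45 in clone2, and Krt7 at 0.38, Krt18 at 0.36 and Sox9 at -0.19 in clone1. In clone1 Krt7 ran from -0.117 to 0.0778 when 1 Scrambled library was left out and was 0.0888 with replicates 1 to 6 alone, and Yap1 ran from -0.135 to 0.151 when 1 was left out, was 0.13 with the replicate block and 0.0481 with replicates 1 to 6 alone. In clone2 against clone1, replicates 7 to 9 alone gave 0.0162 for Krt19, 0.68 for Krt23 and -0.13 for Krt80, and Krt80 was -0.0398 without clone1 replicate 2. In the libraries labelled shYAP, Krt15 ran from -0.355 to 0.340 and Krt18 from -0.0562 to 0.0762 when 1 library was left out, Krt15 was -0.51 against shControl replicates 5 to 10, and Krt80 was -0.17 there. Of the list genes eligible to be named, 9 of 19 in clone2, 6 of 13 in clone1, 16 of 22 in clone2 against clone1 and 4 of 10 in the libraries labelled shYAP kept their call in all alternatives run.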
